A study of Schizosaccharomyces pombe with 8 samples.

Results

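Small RNA was examined over 2096 protein-coding gene transcripts of the fission yeast Schizosaccharomyces pombe that have no annotated partner on the other DNA strand. They are 41.6% of the 5042 transcript rows in the authors' table of 17962 elements. A transcript was taken when no other transcript, long or intergenic non-coding RNA, tRNA, rRNA, snoRNA or snRNA row of the table overlapped it on the opposite strand of the same chromosome. The other 2946 transcripts overlap such a row, and 2171 of them lie opposite another transcript. The choice used positions and no measured value.

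The libraries held RNA of 18 to 28 nt from cultures grown at 30 °C to an OD600 of 0.5. All 8 strains carried ade6-hp+, which, as far as the published study is known, is a hairpin construct made of ade6 sequence. One strain had no further mutation and is called wild type. The others carried Paf1Δ, Paf1-G104R, Paf-1Q264Stop, Leo1Δ, Leo1-W157Stop, Rot1-Q472Stop or Cdc73-G313R, spelled as in the labels. The study is known to have asked how mutants of the Paf1 complex change small RNA made against ade6. There was 1 library per strain, so no difference has a replicate check and no p-value is given. The recovered read totals over all elements ranged from 917824 in the library labelled Cdc73-G313R to 6422295 in wild type, and rRNA held between 4.28% of the scaled total in wild type and 60.0% in Cdc73-G313R.

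Fission yeast makes small interfering RNA with the nuclease Dicer, which cuts double-stranded RNA, and the Argonaute protein Ago1 carries the products to matching nascent transcripts. Double-stranded RNA can arise where RNA is copied from both strands, as at overlapping or converging genes, or where an RNA-dependent RNA polymerase copies a transcript. The Paf1 complex travels with RNA polymerase II and takes part in transcription elongation and in the release of the finished transcript. In fission yeast, loss of its function lets small RNA made in trans silence a matching gene.

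The sequences below are the starts of the coding parts of transcripts on which the results turn. They were read from the RefSeq genome ASM294v3, whose chromosome lengths equal the largest element ends of the table. The first 3 lie side by side at ade6, ptc2 held the most reads of the set after ade6 and bub1 in Leo1Δ, and SPAC15E1.02c had a level that moved little outside Cdc73-G313R. The transcript row of cmc4 is printed whole because its transcript row equals its coding part. Capitals mark the start codon and, in cmc4, also the stop codon.
ade6, chr3:1316337-1316426, plus strand: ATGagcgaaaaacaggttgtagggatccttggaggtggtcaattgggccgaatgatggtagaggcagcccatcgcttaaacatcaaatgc
bub1, chr3:1315843-1315932, minus strand: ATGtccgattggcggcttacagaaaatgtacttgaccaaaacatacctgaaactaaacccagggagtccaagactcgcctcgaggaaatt
vtc4, chr3:1320501-1320590, minus strand: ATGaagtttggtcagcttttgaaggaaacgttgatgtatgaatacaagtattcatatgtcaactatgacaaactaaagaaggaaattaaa
ptc2, chr3:1863757-1863846, plus strand: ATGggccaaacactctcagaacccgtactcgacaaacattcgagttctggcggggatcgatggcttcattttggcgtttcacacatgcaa
SPAC15E1.02c, chr1:3721667-3721756, minus strand: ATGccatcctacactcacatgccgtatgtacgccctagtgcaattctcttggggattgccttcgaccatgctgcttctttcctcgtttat
cmc4, chr1:4878241-4878453, plus strand: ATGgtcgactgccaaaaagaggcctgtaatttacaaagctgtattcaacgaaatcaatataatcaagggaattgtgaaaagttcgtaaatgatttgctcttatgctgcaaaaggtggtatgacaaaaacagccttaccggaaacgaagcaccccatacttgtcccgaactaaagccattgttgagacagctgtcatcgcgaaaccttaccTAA

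The transcripts were between 99 and 15252 nt long, with a median of 1716.5 nt, against 2002 nt for transcripts with overlap. They lay on chromosome 1 (930), chromosome 2 (785) and chromosome 3 (381), with a median GC content of 37.0%. The shortest was ost4, a subunit of the oligosaccharyltransferase, with 1 read in Paf1Δ and 0 in the others. The longest was sib1, the synthetase of the iron carrier ferrichrome, with levels between 3.04 and 3.59. The newer RefSeq annotation places a lncRNA opposite 1714 of the 2096 (81.8%), so the absence of a partner holds for the rows of the authors' table and not for every later annotation.

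Levels are the deposited log2 values of n + 8, where n stands for reads per unit of length on a scale that gives each library an equal sum, so 3 is the floor. In wild type, rows opposite tRNA, rRNA and snoRNA genes had medians of 7777, 151795 and 416 reads, over 7, 3 and 15 rows. Rows that overlap such genes on the same strand had 50.8, 27.2 and 27, over 6, 10 and 29 rows. The tRNA, rRNA and snoRNA rows themselves had medians of 5.62, 1.51 and 5 reads, over 143, 48 and 55 rows. Opposite snRNA genes the median was 9.5 over 4 rows, against 16.0 over 4 rows on the same strand. The 7 snRNA rows themselves had a median of 47 reads. Which strand the levels of coding genes count was not tested. None of the transcripts lies opposite a structural RNA row of the table. Transcripts without overlap sat close to the floor. Their median level in wild type was 3.19, against 3.83 for transcripts with overlap and 3.36 over all elements. The medians in the mutants were 3.45 in Paf1Δ, 3.18 in Paf1-G104R, 3.16 in Paf-1Q264Stop, 3.16 in Leo1Δ, 3.16 in Leo1-W157Stop, 3.19 for Rot1-Q472Stop and 3 for Cdc73-G313R. In recovered reads the wild-type median was 9.35 a transcript, against 61.4 with overlap, and 133 transcripts had 0 reads. In Cdc73-G313R, 1055 transcripts had 0 reads.

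A level of at least 5 was reached by 37 transcripts in wild type, or 1.77%. The share was 11.1% for transcripts with overlap. In the mutants 53 transcripts reached it in Paf1Δ, 34 in Paf1-G104R, 28 in Paf-1Q264Stop, 26 in Leo1Δ, 25 in Leo1-W157Stop, 33 for Rot1-Q472Stop and 4 for Cdc73-G313R. Transcripts with overlap reached it more often in each of the 8 libraries. Of the 2096, 2008 stayed below it in all 8 libraries, 49 reached it in 1 library and 2, ade6 and taf12, reached it in all 8. With overlap, 62 of 2946 reached it in all 8.

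**Figure D1:**
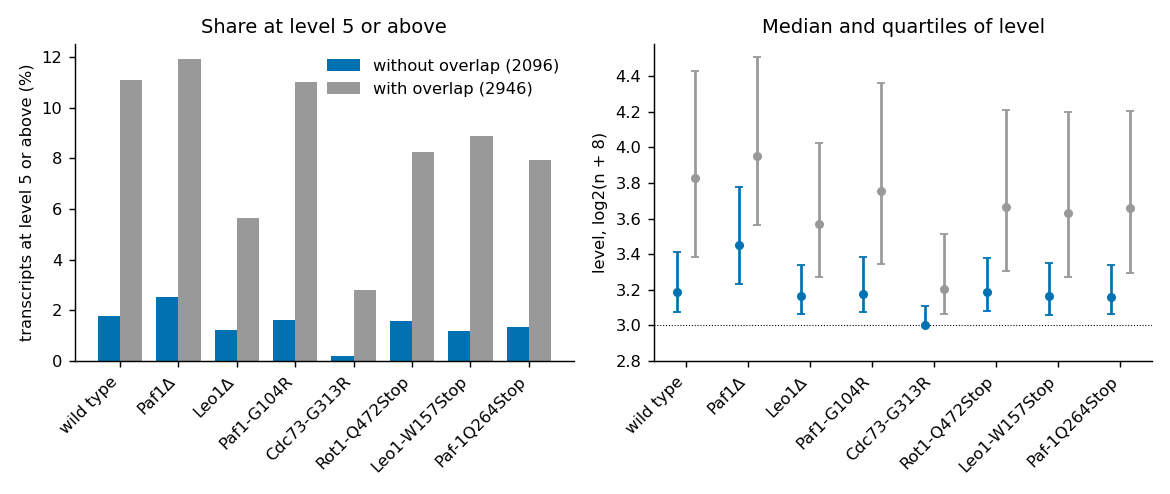
Left, bars give the percent of transcripts at level 5 or above in each of the 8 libraries, in blue for the 2096 transcripts without opposite-strand overlap and in grey for the 2946 with it. Right, points are median levels on the log2(n + 8) scale, bars reach from the lower to the upper quartile, and the dotted line is the floor of 3. The transcripts without overlap lie lower in every library, at 1.77% against 11.1% in wild type.

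Most reads on these transcripts came from 1 place. The genes ade6, bub1 and vtc4 held 81.1% of the set's reads in wild type and between 57.5% (Paf1Δ) and 95.5% (Leo1-W157Stop) across the libraries. With them, the set took 4.56% of recovered reads in wild type (95% binomial interval 4.54% to 4.57%, for counting error only) and between 1.84% (Cdc73-G313R) and 20.01% (Paf1-G104R) in the mutants. Without them, its share was 0.859% in wild type, 1.78% in Paf1Δ, 1.02% in Paf1-G104R, 0.948% in Paf-1Q264Stop, 1.74% in Leo1Δ, 0.864% in Leo1-W157Stop, 1.02% for Rot1-Q472Stop and 0.321% for Cdc73-G313R. Elements overlap in part, so these are shares of reads summed over all rows.

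In wild type, length classes differed in the upper tail of the levels more than in the middle. The median level was 3.18 below 1000 nt (392 transcripts), 3.20 from 1000 to under 2000 nt (870), 3.18 from 2000 to under 3000 nt (520) and 3.17 from 3000 nt (314). Over the same classes the share at level 5 or above was 3.32%, 2.18%, 0.96% and 0 of 314, and a count of 0 allows up to 0.955%. In reads per kb, pooled without ade6, bub1 and vtc4, wild type had 21.2, 16.5, 14.2 and 8.23. The level is divided by length, so 1 read moves a short transcript further. The order was not that of every mutant: over the same classes the shares at level 5 or above were 3.83%, 2.41%, 3.08% and 0.318% in Paf1Δ, 1.53%, 1.72%, 1.15% and 0.318% in Paf-1Q264Stop, and 0, 0.115%, 0.192% and 0.637% in Cdc73-G313R. Transcripts with overlap had 18.4%, 12.9%, 9.26% and 6.85% in wild type, but 17.4%, 11.5%, 10.1% and 12.3% in Paf1Δ and 2.58%, 1.64%, 2.44% and 5.33% in Cdc73-G313R. Spearman's rho between length and level over the 2096 transcripts lay between -0.02 in wild type and 0.16 in Cdc73-G313R.

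The chromosomes differed little in wild type once the reads at ade6, bub1 and vtc4 were set aside. In wild type the median level was 3.19 on chromosome 1, 3.19 on chromosome 2 and 3.16 on chromosome 3. Reads per kb without ade6, bub1 and vtc4 were 14.1, 13.1 and 12.8. In Leo1Δ they were 4.73, 5.28 and 31.9, and the gene ptc2 alone held 19042 of the chromosome 3 reads there. In Paf1Δ chromosome 3 had the highest median of the chromosomes, 3.53 against 3.42 and 3.45. Chromosome 3 holds 18.2% of the set. Of the higher transcripts counted below, it held 7 of 21 in Paf1Δ, 7 of 10 in Paf1-G104R, 6 of 11 in Paf-1Q264Stop and 8 of 12 in Leo1Δ. It held 5 of 8 in Leo1-W157Stop, 6 of 13 for Rot1-Q472Stop and 1 of 2 for Cdc73-G313R. The genes ade6 and ptc2 lie there, and the share of all elements by chromosome was not counted.

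Within the transcripts, wild-type reads lay towards the 3′ end. Of the transcripts, 1744 have rows for both untranslated regions, with ade6, bub1 and vtc4 left out. Their 3′ UTRs held 45.2 reads per kb in wild type, the part between the UTRs 7.79 and the 5′ UTRs 7.55. The 3′ UTRs made up 14.7% of the length and 50.1% of the reads. In 1074 of the 1744 the 3′ UTR had more reads per kb than the part between the UTRs. Pooled over 2594 transcripts with overlap, the 5′ UTRs had 231 reads per kb, the part between the UTRs 91.7 and the 3′ UTRs 166. How far single transcripts with many reads make up these pooled values was not checked.

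In the mutants the 3′ UTR held a smaller share of the same transcripts' reads. It was 24.2% in Paf1Δ, 40.8% in Paf1-G104R, 43.4% in Paf-1Q264Stop, 16.5% in Leo1Δ, 31.9% in Leo1-W157Stop, 35.2% for Rot1-Q472Stop and 21.9% for Cdc73-G313R. Each of these 7 values lay below the wild-type 50.1%. Without the 10 transcripts of most reads in each library, a choice made after seeing the data, the share was 48.2% in wild type and 33.1% in Leo1Δ. In Cdc73-G313R the 1744 transcripts had 2586 reads in all. Wild type was also the deepest library, and the part of depth and of rRNA content in this order was not tested.

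The 3′ reads were densest where an opposite-strand row lay close to the 3′ end. In wild type, 337 transcripts had such a row within 100 nt of their 3′ end, which places the end of a converging unit next to their own. Of these, 17 (5.04%) reached level 5, against 3 of 195 (1.54%) with the row within 100 nt of the 5′ end and 6 of 838 (0.716%) with a gap of 500 nt or more. Among the 295 converging transcripts with both UTR rows, the 3′ UTR held 169 reads per kb and the part between the UTRs 9.09. The 3′ UTR exceeded the part between the UTRs in 262 of the 295. The median 3′ UTR there had 54.3 reads per kb. With a 5′ side neighbour at the same distance, 174 transcripts had 25.8 reads per kb in the 3′ UTR and 7.26 between the UTRs. With a gap of 500 nt or more, the 3′ UTR had 20.1 on either side. Which strand these reads come from was not tested, so they cannot be assigned to the transcript or to the converging neighbour.

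The same converging transcripts had the highest 3′ UTR density among the 6 distance and side classes in each mutant. It was 25.5 reads per kb in Paf1Δ, 35.2 in Leo1Δ, 77.3 in Paf1-G104R, 2.72 in Cdc73-G313R, 35.2 for Rot1-Q472Stop, 19.0 in Leo1-W157Stop and 70.1 in Paf-1Q264Stop. These values are not scaled for depth. Their share of reads in the 3′ UTR was 70.5% in wild type and between 29.8% (Cdc73-G313R) and 56.9% (Paf1-G104R) in the mutants.

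**Figure D2:**
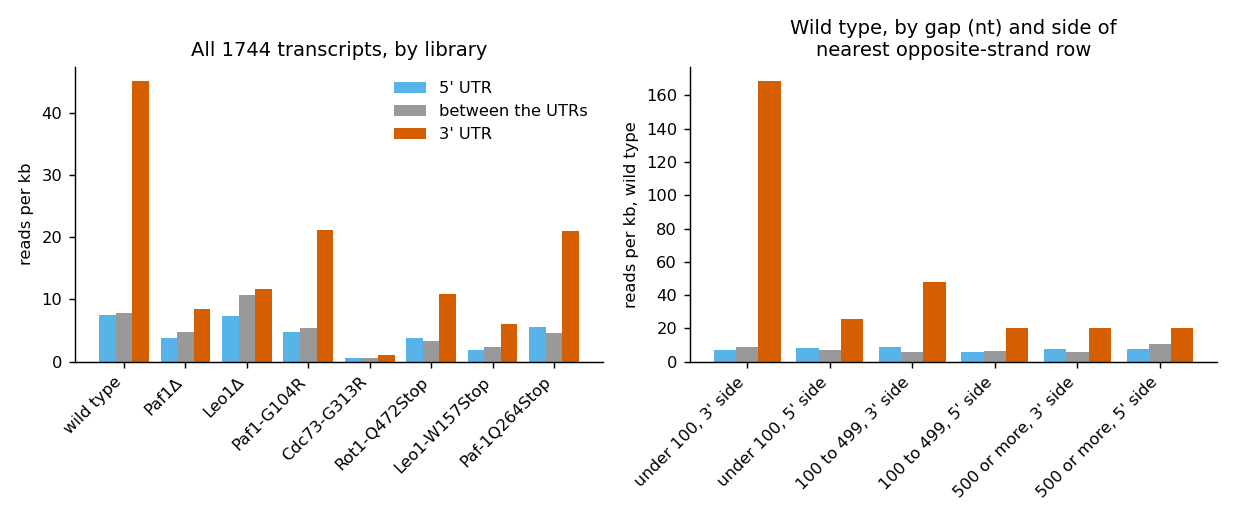
Bars give recovered reads per kb in the 5′ UTR, between the UTRs and in the 3′ UTR, pooled over transcripts without opposite-strand overlap and without ade6, bub1 and vtc4. Left, all 1744 transcripts with both UTR rows in each of the 8 libraries, not scaled for depth; right, wild type split by the gap and side of the nearest opposite-strand row. The 3′ UTR bar is highest in wild type, and within wild type at a 3′ side gap under 100 nt, where it reaches 169 reads per kb.

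Some of the transcripts highest in wild type after ade6, picked as examples, show these 3′ reads one by one. Others had a smaller part there: 40.7% in SPAC15E1.02c (level 7.03) and 39.2% in SPBC21B10.15 (6.49). The gene rlc1 encodes a myosin regulatory light chain. It had a level of 7.84 in wild type with 1406 reads, of which 99.2% lay in its 3′ UTR of 373 nt. Its levels in the mutants were 6.15, 7.19, 5.83, 5.26, 5.75, 6.82 and 3.37, in the order Paf1Δ, Paf1-G104R, Paf-1Q264Stop, Leo1Δ, Leo1-W157Stop, Rot1-Q472Stop and Cdc73-G313R. All lay below wild type, and rlc1 overlaps the row SPAC926.02 on the same strand, so reads may be shared. In the same order, lsm6, a subunit of the ring that binds U6 RNA, had 7.64 in wild type and then 5.84, 6.68, 6.68, 6.18, 5.12, 5.92 and 3.95. Its 3′ UTR held 70.9% of 573 wild-type reads, on 18.1% of its length.

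The gene arp2, of the actin-nucleating Arp2/3 complex, has its nearest opposite-strand row 396 nt away. It had 788 wild-type reads with 98.6% in the 3′ UTR. Its level was 6.59 in wild type and then 5.19, 5.50, 5.60, 5.62, 4.48, 5.35 and 3.95. The ribosome biogenesis gene lcp5 had 494 reads in wild type, all of them in a 3′ UTR of 200 nt. Its nearest opposite-strand row lies 1 nt away. Its level was 6.41 in wild type and then 4.77, 5.72, 6.08, 4.54, 4.27, 5.48 and 3.90. Both were below wild type in all 7 mutants. Among the 26 of the 37 wild-type high transcripts with both UTR rows, 15 had over 50% of their reads in the 3′ UTR, at a median of 80.7% of reads on 17.9% of length. These 37 were picked by their wild-type level, which by itself favours lower values elsewhere, and 19 of them were lower by any amount in all 7 mutants.

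A transcript with a different place for its reads was mae2, which encodes malic enzyme. It had 1803 wild-type reads, 0.111% of them in the 3′ UTR, and its nearest opposite-strand row was 895 nt away on the 5′ side. Its level was 7.48 in wild type, 3.68 in Paf1Δ, 4.40 in Paf1-G104R, 3.61 in Paf-1Q264Stop, 5.57 in Leo1Δ, 3.33 in Leo1-W157Stop, 3.19 for Rot1-Q472Stop and 3.08 for Cdc73-G313R. No mutant came near the wild-type level. The ratio to wild type was highest in Leo1Δ at 0.232 (95% interval 0.199 to 0.269) and lowest in Cdc73-G313R, where 1 read remained. Of the 38 transcripts at level 5 or above in wild type or the mutant in each of the 7 comparisons, mae2 was the only one lower by at least 1 in all 7. Over all elements past the same filter the share was 2.29%, or 48 of 2092.

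The gene SPAC15E1.02c (chr1:3721257-3721816) had 7.03 in wild type, 6.68 in Paf1Δ, 6.83 in Paf1-G104R, 7.06 in Paf-1Q264Stop, 6.85 in Leo1Δ, 7.09 in Leo1-W157Stop, 6.57 for Rot1-Q472Stop and 4.78 for Cdc73-G313R. Outside Cdc73-G313R, the level stayed within 0.46 of wild type. The gene taf12, a subunit of the TFIID and SAGA transcription complexes, had 5.58 in wild type and 95% of its wild-type reads in the 3′ UTR. Its mutant levels were 6.68, 6.32, 6.22, 5.76, 6.87, 7.28 and 5.13 in the order given above. It was higher than wild type by 1.10 in Paf1Δ, 1.28 in Leo1-W157Stop and 1.69 in Rot1-Q472Stop, and lowest in Cdc73-G313R. The short transcript cmc4, a mitochondrial protein gene of 213 nt, had a wild-type level of 6.24. It stood at 3.51 in Cdc73-G313R and at 5.13 in Paf-1Q264Stop, 1.11 below wild type, and the highest mutant had 6.36.

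Changes against wild type were counted as a difference of at least 1 on the log2 scale at a level of at least 5 in the higher library. The 7 comparisons share the wild-type library. In Paf1Δ, 68 transcripts passed the level, 21 were higher and 7 lower, while 22.3% of all elements past the level were higher and 19.8% lower. In Leo1Δ, 12 were higher and 16 lower of 48, beside 5.08% and 29.6% of all elements. In Paf1-G104R, 10 were higher and 2 lower of 47, beside 4.58% and 9.79%. In Cdc73-G313R, 2 were higher and 36 lower of 39, beside 3.92% and 74.9%. In Rot1-Q472Stop, 13 were higher and 15 lower of 49, beside 8.37% and 26.3%. In Leo1-W157Stop, 8 were higher and 18 lower of 45, beside 8.73% and 32.9%. In Paf-1Q264Stop, 11 were higher and 11 lower of 48, beside 3.8% and 12.6%.

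Among transcripts past the level, the set's higher share was above that of all elements in each mutant. It lay between 17.8% (Leo1-W157Stop) and 30.9% (Paf1Δ) outside Cdc73-G313R. In Cdc73-G313R it was 5.13%, from 2 of 39, beside 3.92%. A transcript near the floor in wild type passes only if high in the mutant. In wild type 1.77% of the set reached level 5, beside 11.6% of all elements. Over all 2096 and all 17962 rows, higher counts were 21 and 654 in Paf1Δ, 12 and 113 in Leo1Δ, and 10 and 111 in Paf1-G104R. They were 2 and 85 in Cdc73-G313R, 13 and 202 for Rot1-Q472Stop, 8 and 213 in Leo1-W157Stop, and 11 and 87 in Paf-1Q264Stop. As shares of all rows, the set thus lay below all elements in each mutant but Paf-1Q264Stop. Windows of 20000 nt around ade6, nmt1, ptc2 and trp1, described below, were drawn after the values were seen. Outside them the higher count fell to 1 of 35 in Leo1Δ (2.86%, beside 3.49% of all elements outside them). It was 2 of 37 in Paf1-G104R (5.41%, beside 3.40%) and 1 of 35 in Cdc73-G313R (2.86%, beside 3.58%). For Rot1-Q472Stop it was 5 of 39 (12.8%, beside 7.40%). It was 3 of 38 (7.89%) in both Leo1-W157Stop and Paf-1Q264Stop, beside 7.93% and 2.66%. In Paf1Δ it was 18 of 61 (29.5%, beside 21.9%). The median difference over the transcripts past the level was 0.27 in Paf1Δ, -0.21 in Paf1-G104R, -0.51 in Paf-1Q264Stop, -0.70 in Leo1Δ, -0.56 in Leo1-W157Stop, -0.46 for Rot1-Q472Stop and -2.04 for Cdc73-G313R. Over all elements past the level it was 0.01, -0.11, -0.31, -0.70, -0.48, -0.39 and -2.00. When each library was centred on that median of all elements, 13 were higher and 3 lower in Leo1Δ, 10 and 1 in Paf1-G104R, 12 and 4 in Paf-1Q264Stop, 11 and 6 in Leo1-W157Stop, 14 and 5 for Rot1-Q472Stop, 3 and 3 for Cdc73-G313R. In Paf1Δ the counts stayed at 21 and 7. The sign of the median changed with the level: at a level of at least 6, it was positive in each mutant but Cdc73-G313R, from 0.23 in Paf1Δ to 1.72 in Leo1Δ. Scaled to the total without structural RNA rows, 52 were higher and 6 lower in Paf1Δ, 16 and 10 in Rot1-Q472Stop, and 17 and 17 in Leo1-W157Stop. All elements that passed the level before this scaling then had medians of 0.43, -0.14 and -0.18 in these 3 mutants. After quantile normalization 14 were higher and 4 lower in Leo1Δ, 4 and 15 in Cdc73-G313R, 12 and 4 for Rot1-Q472Stop, 10 and 7 in Leo1-W157Stop, and 9 and 3 in Paf-1Q264Stop. With 1 in place of 8 as the added constant, 23 were higher and 14 lower in Paf1Δ, 11 and 5 in Paf1-G104R, and 11 and 18 in Paf-1Q264Stop. The share of all elements was not counted under these alternatives, so their counts have no background beside them.

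**Figure D3:**
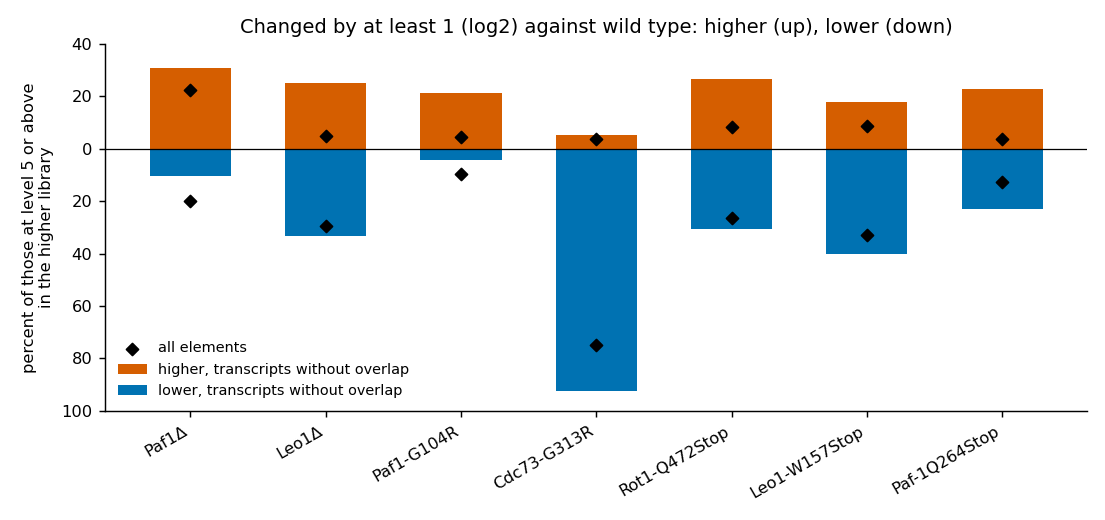
Bars above 0 give the percent of transcripts without opposite-strand overlap that were higher than wild type by at least 1 on the log2 scale, and bars below 0 the percent lower, among those at level 5 or above in the higher library. Diamonds give the same for all elements of the table, as 22.3% higher and 19.8% lower in Paf1Δ. The higher bars stand above their diamonds in all 7 mutants, in Cdc73-G313R with 2 of 39 transcripts (5.13% against 3.92%), and that mutant has the longest lower bar. A smaller part of the set than of all elements passed the level, as 3.24% against 16.4% in Paf1Δ. As shares of all rows, which are not drawn, the set lay below all elements in each mutant but Paf-1Q264Stop.

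The gene targeted by the hairpin sequence, ade6, encodes an enzyme of adenine synthesis and had the highest level of the set in every library. It was 14.64 in wild type, 13.77 in Paf1Δ, 16.61 in Paf1-G104R, 16.28 in Paf-1Q264Stop, 16.18 in Leo1Δ, 16.57 in Leo1-W157Stop, 16.06 for Rot1-Q472Stop and 12.38 for Cdc73-G313R. Reads of the construct and of the gene cannot be told apart by sequence. Of the mutants, 5 stood above wild type, by 1.42 to 1.96, and Paf1Δ and Cdc73-G313R stood below it. Under quantile normalization the median difference over the 7 mutants fell from 1.53 to 0.39.

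The genes on both sides of ade6 were high in mutants and near the floor in wild type. The gene bub1, a kinase of the spindle checkpoint, starts 237 nt from ade6 on the other strand. It had 110 reads in wild type, 1540 in Paf1Δ, 24680 in Paf1-G104R, 47558 in Paf-1Q264Stop, 99324 in Leo1Δ, 6688 in Leo1-W157Stop, 21096 for Rot1-Q472Stop and 538 for Cdc73-G313R. Levels rose from 3.84 to between 6.93 and 13.57, so no mutant overlapped wild type. The ratio was lowest in Cdc73-G313R at 18.1 (95% interval 14.7 to 22.4) and highest in Leo1Δ at 1933 (1603 to 2352). Of the 38 transcripts past the level in all 7 comparisons, bub1 was the only one higher in all 7, beside 0.239% of all elements, or 5 of 2092. With 3.84 in wild type, bub1 passed the level only through the mutants. It could therefore only count as higher, and the count is a description.

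The gene vtc4, a polyphosphate polymerase of the vacuole, lies 304 nt beyond the other end of ade6. Its level was 3.07 in wild type, 5.65 in Paf1Δ, 9.19 in Paf1-G104R, 7.64 in Paf-1Q264Stop, 9.83 in Leo1Δ, 7.61 in Leo1-W157Stop, 7.40 for Rot1-Q472Stop and 3.96 for Cdc73-G313R. Each mutant thus lay above wild type, and Cdc73-G313R stayed under level 5. The ribosomal protein genes rpl3402 and rpl2302 lie 3321 and 3858 nt from ade6. In Leo1Δ rpl3402 had 7.55 against 3.31 in wild type, and rpl2302 had 6.24 against 3.24. In Paf1-G104R rpl3402 was also higher, at 6.20, while the other mutants had 3.15 to 4.71. For rpl2302 they had 3.15 to 4.89. The gene knh2, 5295 nt from ade6, had 3 to 3.36 in all 8 libraries.

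Higher transcripts also lay together around nmt1 and trp1, and ptc2 was taken as a further centre. All 3 were chosen after their values were seen. The only other higher transcripts of the set in the ptc2 window were drs1 and rpl3702, which also lie in the nmt1 window. In Paf1Δ ptc2 was the only higher transcript of the set in its window. Within 20000 nt of nmt1, ptc2 or trp1, or of ade6, lay 34 transcripts of the set (1.62%), and the ptc2 and nmt1 windows overlap. These 34 gave 3 of the 21 higher transcripts in Paf1Δ, 11 of 12 in Leo1Δ, 8 of 10 in Paf1-G104R, 8 of 11 in Paf-1Q264Stop, 5 of 8 in Leo1-W157Stop, 8 of 13 for Rot1-Q472Stop and 1 of 2 for Cdc73-G313R. The windows were drawn around higher transcripts, so these counts are descriptions. The nmt1 gene itself, whose promoter is used in fission yeast constructs, is not in the set.

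Next to nmt1, at 870 nt, lies hel2, which encodes a ubiquitin ligase that in budding yeast acts in ribosome quality control. It had 3.31 in wild type, 4.59 in Paf1Δ, 6.85 in Paf1-G104R, 6.59 in Paf-1Q264Stop, 7.39 in Leo1Δ, 6.10 in Leo1-W157Stop, 6.28 for Rot1-Q472Stop and 3.87 for Cdc73-G313R. In all, 5 mutants passed level 5 and all were above wild type. The gene drs1, 13105 nt from nmt1, rose from 4.36 to between 5.86 and 6.40 in the same 5 mutants, and had 4.80 in Paf1Δ and 3.60 in Cdc73-G313R. Of the transcripts between them, rpl3702, a ribosomal protein gene, was higher in Rot1-Q472Stop at 5.60, with 0 reads in wild type and 41.5 there. The gene tea1, a marker of the cell ends, had 4.42 to 4.81 outside Cdc73-G313R. The genes spc19 and set11 stayed below level 5, at 4.78 and 4.45 in Paf1-G104R against 3.18 and 3.11 in wild type.

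The phosphatase gene ptc2 had 44 reads in wild type, 234 in Paf1Δ, 238 in Paf1-G104R, 241 in Paf-1Q264Stop, 19042 in Leo1Δ, 65 in Leo1-W157Stop, 91 for Rot1-Q472Stop and 15 for Cdc73-G313R. Leo1Δ stood far above the other libraries, at a level of 11.40 against 3.45 in wild type and a ratio of 926 (95% interval 690 to 1275). A non-coding row, SPNCRNA.586, overlaps ptc2 on the same strand and may share its reads. At the trp1 locus of chromosome 2, nop16, a ribosome biogenesis gene 738 nt from trp1, had 3.27 in wild type, 4.39 in Paf1Δ, 4.53 in Paf1-G104R, 6.23 in Paf-1Q264Stop, 7.90 in Leo1Δ, 4.16 in Leo1-W157Stop, 6.58 for Rot1-Q472Stop and 3.12 for Cdc73-G313R. The gene trp1, of tryptophan synthesis, had 3.18 in wild type and was higher in 4 mutants, at 6.69 in Leo1Δ, 6.45 in Paf-1Q264Stop, 6.28 in Rot1-Q472Stop and 5.34 in Paf1-G104R, the last with 231 reads against 12 in wild type. The gene arf6, 43 nt on the other side of trp1, had 5.48 in wild type and did not exceed 6.04.

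**Figure D4:**
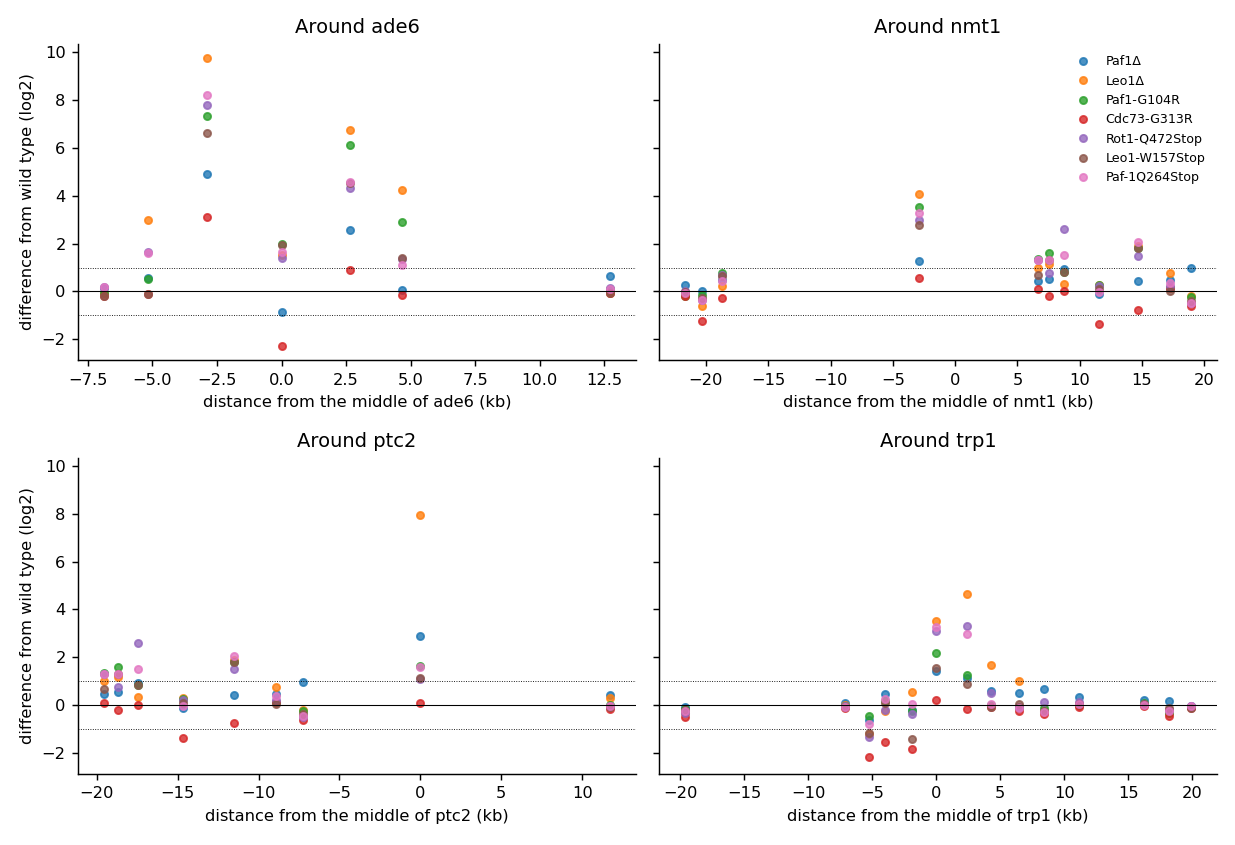
Each point is 1 transcript without opposite-strand overlap in 1 of the 7 mutants, placed by the distance in kb from the middle of ade6, nmt1, ptc2 or trp1 and by its log2 difference from wild type, with dotted lines at 1 and -1. High points crowd near ade6, where bub1 reaches 9.73 in Leo1Δ. The windows around nmt1 and ptc2 share transcripts.

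In Paf1Δ most higher transcripts lay elsewhere, 18 of 21 outside these windows. The largest difference among them was at pil1, which encodes the core protein of eisosomes, the furrows of the plasma membrane. It had 3.41 in wild type, 7.65 in Paf1Δ, 3.68 in Paf1-G104R, 3.93 in Paf-1Q264Stop, 4.94 in Leo1Δ, 4.70 in Leo1-W157Stop, 4.95 for Rot1-Q472Stop and 3.33 for Cdc73-G313R. Paf1Δ stood alone above level 5, at a ratio of 73.5 (95% interval 51.7 to 108). None of the 7 transcripts of the set within 20000 nt of pil1 was higher by the same count. Of 11 glycolysis and fermentation genes in the set, 4 passed the level in Paf1Δ, 3 of them higher and none lower, beside 22.3% of all elements higher. The higher ones were pgk1, phosphoglycerate kinase, at 5.93 against 3.59, eno101, enolase, at 5.61 against 3.36, and fba1, aldolase, at 5.09 against 3.18. These 3 were near the floor in wild type and passed the level only through Paf1Δ. They could therefore only count as higher, and the count is a description. In the other 6 mutants none of the 11 passed level 5. The median difference of the 11 in Paf1Δ was 0.90, beside 0.19 over all 2096.

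Lists whose genes stayed below level 5 also had positive median differences in Paf1Δ. They were 0.73 over 4 translation factors, 0.52 over 8 heat shock genes, 0.46 over 4 histone genes, 0.31 over 8 RNAi and heterochromatin genes, 0.19 over 2 thiamine genes and 0.13 over 3 housekeeping genes, again beside 0.19. No gene of these 6 lists reached level 5 in any library, so none was counted. In Paf1Δ Spearman's rho between GC content and level over the 2096 transcripts was 0.24, against -0.07 in wild type. Paf1Δ had a median of 5 reads a transcript, and 1 read raised a level more there than in any other library. The part of depth and of GC content in these values was not tested.

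Of 131 ribosomal protein genes, 85 are in the set, and 8 reached level 5 in at least 1 library. The gene rps7 had 5.05 in wild type, 5.77 in Paf1Δ, 6.35 in Paf1-G104R, 4.57 in Paf-1Q264Stop, 4.91 in Leo1Δ, 6.01 in Leo1-W157Stop, 6.20 for Rot1-Q472Stop and 3.15 for Cdc73-G313R. It was thus above wild type in some mutants and below it in others. The gene rpl2701 had a wild-type level of 5.42. It stood at 3.17 in Cdc73-G313R and between 4.56 and 5.54 elsewhere. Of the 85, 5 passed the level in Paf1Δ, with 1 higher and 1 lower, and 5 in Leo1Δ, with 2 and 1. In both Paf1-G104R and Rot1-Q472Stop 4 passed it, with 2 higher and 0 lower. In Cdc73-G313R 3 passed it and all were lower, beside 74.9% of all elements. In each of the remaining mutants 3 passed it and 0 changed.

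Of 5 genes of the Paf1 complex, 3 are in the set, while leo1 and cdc73 are not. The gene paf1 had 27 reads in wild type, 6 in Paf1Δ, 15 in Paf1-G104R, 203 in Paf-1Q264Stop, 8 in Leo1Δ, 4 in Leo1-W157Stop, 7 for Rot1-Q472Stop and 27 for Cdc73-G313R. Scaled for depth, Paf-1Q264Stop stood highest, at a level of 5.53 against 3.50, and the library labelled Cdc73-G313R next, at 4.33. The level of 3.52 in the library labelled Paf1Δ, against 3.50 in wild type, rests on 6 reads over a row that includes the UTRs. No drop was seen there, and the reads are few. Whether a label is exchanged was not tested. The gene prf1, the homologue of Rtf1, had 874 reads and a level of 7.19 in the library labelled Paf1-G104R. The other 7 libraries had 1 to 5 reads. Outside the set, cdc73 had 6.15 in the library labelled Rot1-Q472Stop and at most 3.79 in the others. Also outside it, leo1 had 7.34 in Leo1-W157Stop, 5.35 in the library labelled Leo1Δ, 4.61 in wild type and at most 5.12 in the others. No drop of leo1 was thus seen in the library labelled Leo1Δ, with 215 reads there and 231 in wild type. Why was not tested. The raised gene was thus not the labelled one in the libraries labelled Paf1-G104R and Cdc73-G313R. Which gene the label Rot1 stands for was not established, so no labelled gene was compared in the library labelled Rot1-Q472Stop. In Cdc73-G313R, paf1 was higher by 0.84 with 27 reads and below level 5, so it was not counted as changed. Each direction given for these libraries is that of the library labelled so. The gene tpr1, the homologue of Ctr9, stayed between 3.08 and 3.51.

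The remaining lists lay near the floor in all 8 libraries. Of 19 RNAi and heterochromatin genes 8 are in the set, with rdp1, the RNA-dependent RNA polymerase, at 3.38 to 4.44 and clr2, a subunit of the SHREC silencing complex, at 3.20 to 4.10. The thiamine genes bsu1 and thi2 stayed between 3.05 and 3.68. The actin gene act1 and the tubulin gene nda3 stayed between 3.06 and 3.77. No gene of the RNAi, thiamine or housekeeping lists reached level 5 in any library. In Cdc73-G313R the only higher transcript beside bub1 was gea1, which encodes an exchange factor of Arf proteins, with 161 reads against 52 in wild type and a ratio of 11.5 (95% interval 8.33 to 16.0).

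**Figure D5:**
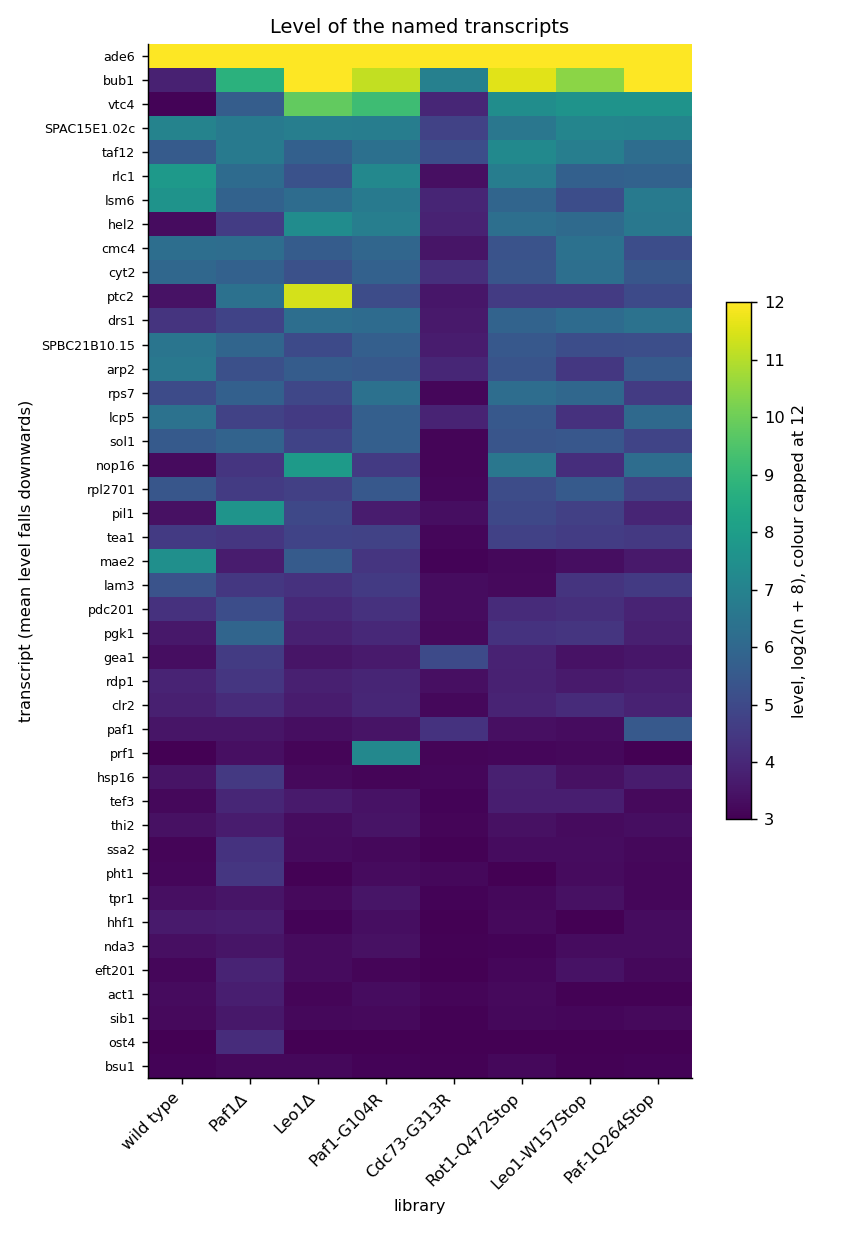
Each cell gives the level, on the log2(n + 8) scale, of 1 of the 43 named transcripts (rows, ordered by mean level) in 1 of the 8 libraries (columns), with the colour capped at 12. The row of ade6 is bright in every library, mae2 is bright in wild type at 7.48, ptc2 in Leo1Δ at 11.40, pil1 in Paf1Δ at 7.65 and prf1 in the library labelled Paf1-G104R at 7.19.

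Position near a chromosome end set few of these transcripts apart. Of 83 transcripts within 100000 nt of an end, 3 reached level 5 in wild type. They are SPBPB10D8.04c, SPBPB10D8.05c and SPBPB10D8.06c, neighbours of similar sequence that share reads, so they are not 3 separate places. Their wild-type levels were 5.06, 5.20 and 5.17. In the 7 mutants they were lower, between 3.22 and 4.51. The gene SPAC977.14c, near the left end of chromosome 1 and outside the naming rule, was chosen after its values were seen. It had 3.11 in wild type, 6.99 in Leo1Δ, 6.04 in Rot1-Q472Stop and 5.80 in Paf-1Q264Stop, and at most 3.59 in the other mutants.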

How the data were processed

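Per the labels' protocols, 18 to 28 nt RNA was cut from gels loaded with 25 µg of a small RNA fraction. CASAVA 1.8 and Bowtie 0.9.9.1 appear in the submitters' processing notes. For build, annotation and counting, the sources used here state nothing. The values the authors deposited are log2 levels per element, 1 column per library. Their lowest value is 3 and their linear sum 907489 in each library, so they act as log2(n + 8). Reads were recovered from the steps of low values, and 79.1% to 88.9% of values above 0 came out whole within 0.05. Fractions were rounded for intervals. No count model was run.

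Overlap means at least 1 nt. By identifier, 2090 of the 2096 transcripts were found in RefSeq ASM294v3. The transcripts and lists were chosen with earlier results of these data known. Transcripts are named if among the 12 of highest mean level, changed alike in all 7 mutants (up to 8 per direction), among the 3 most changed per direction and mutant with 20 reads, in the ade6 locus, nmt1, telomere-linked or Paf1 complex lists, among the 2 of highest mean level in another list, length class or chromosome, or longest or shortest, 43 in all. Others are named for a count, a neighbourhood or a 3′ UTR after their values were seen. The telomere-linked list (2 genes) holds none of the set, the malate list 1 of 2 (mae2) and the phosphatase list ptc2.

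Ratios carry 95% Clopper-Pearson intervals given the summed reads. They cover counting error only, since PCR copies are not separate molecules. With 1 library per strain no test was possible. Counting steps were tested on simulated data. Python 3.11.15, numpy 2.4.6, pandas 2.3.3, scipy 1.17.1 and matplotlib 3.10.9 were used. Alternatives to the level, threshold, scaling, constant and overlap rule were tried.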

Additional observations from a re-analysis of the deposited data

Results flagged for a closer look

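In 3 transcripts the difference from wild type was at least 1 in opposite directions in different mutants, past level 5. Each mutant has 1 library, so the contrast between mutants was not tested. The gene ade6 differed by 1.96 in Paf1-G104R and by -2.26 in Cdc73-G313R. The gene rps7 differed by 1.30 in Paf1-G104R and by -1.90 in Cdc73-G313R. The gene dfg10, named after its values were seen, differed by 1.27 in Leo1-W157Stop and by -1.69 in Cdc73-G313R. In all 3 the lower value was that of Cdc73-G313R, where the median over all elements at the level was -2.00 and rRNA held 60.0% of the scaled total. The part of rRNA in these values was not tested.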

How the results depend on the processing

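No paired analysis was possible because each strain has 1 library. No named transcript changed sign past the threshold under the alternatives run, but median differences did change sign. They were negative as reported in every mutant but Paf1Δ. At level 6 and after quantile normalization they were positive in all of these but Cdc73-G313R, and also in Leo1Δ after centring and in Leo1-W157Stop without structural RNA in the total (0.14). The counts below moved by over 1.5 times, and the cause was not tested. Counts are given as higher and lower transcripts against wild type.

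With a difference of at least 2, higher counts were 12 in Paf1Δ, 6 in Paf1-G104R, 3 in Leo1-W157Stop, 8 for Rot1-Q472Stop and 1 for Cdc73-G313R. Lower counts were 1 in Paf1Δ, Leo1Δ and Paf1-G104R, 21 in Cdc73-G313R, 2 for Rot1-Q472Stop and Paf-1Q264Stop, and 6 in Leo1-W157Stop. At level 4, and with no filter, higher counts were 96 in Paf1Δ, 20 in Leo1Δ, 21 for Rot1-Q472Stop and 17 in Leo1-W157Stop, and lower counts 14 in Paf1Δ, 125 in Cdc73-G313R, 23 for Rot1-Q472Stop and 32 in Leo1-W157Stop. The Cdc73-G313R median was -1.24 at level 4. With no filter, medians were -0.034 in Leo1Δ, -0.13 in Cdc73-G313R and -0.012 in Rot1-Q472Stop. Transcripts at level 4 numbered 166 in wild type, 335 in Paf1Δ, 113 in Leo1Δ, 149 in Paf1-G104R, 135 in Paf-1Q264Stop, 115 in Leo1-W157Stop, 123 for Rot1-Q472Stop and 10 for Cdc73-G313R. At level 6 they numbered, in that order, 9, 13, 14, 12, 11, 12, 12 and 2. At level 6, 7 were higher in Paf1Δ and Paf-1Q264Stop and 1 in Cdc73-G313R, while lower counts were 5 in Leo1Δ, 9 in Cdc73-G313R, 5 for Rot1-Q472Stop, 6 in Leo1-W157Stop and 4 in Paf-1Q264Stop. Medians were then 1.72 in Leo1Δ, 0.74 in Paf1-G104R, 0.33 in Paf-1Q264Stop, 0.37 in Leo1-W157Stop, 0.96 for Rot1-Q472Stop and -2.68 for Cdc73-G313R.

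Centring left lower counts of 3 in Leo1Δ and Cdc73-G313R, 1 in Paf1-G104R, 5 for Rot1-Q472Stop, 6 in Leo1-W157Stop and 4 in Paf-1Q264Stop, with medians of 0.0020 in Leo1Δ and -0.039 in Cdc73-G313R. Quantile normalization gave 13 higher in Paf1Δ and 4 in Cdc73-G313R. Its lower counts were 4 in Leo1Δ and Rot1-Q472Stop, 1 in Paf1-G104R, 15 in Cdc73-G313R, 7 in Leo1-W157Stop and 3 in Paf-1Q264Stop, and its medians 0.42 in Leo1Δ, -1.23 in Cdc73-G313R, 0.019 for Rot1-Q472Stop and 0.51 in Leo1-W157Stop. Without structural RNA in the total, 52 were higher in Paf1Δ (median 0.81) and 17 in Leo1-W157Stop. All elements that passed the level before this scaling then had a median of 0.43 in Paf1Δ. The Cdc73-G313R median was -1.57, and 100, 7 and 38 transcripts reached level 5 in Paf1Δ, Cdc73-G313R and Leo1-W157Stop. With a constant of 1, lower counts were 14 in Paf1Δ, 5 in Paf1-G104R and 18 in Paf-1Q264Stop, and the Cdc73-G313R median was -3.49.

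An overlap of at least 30 nt left 2286 transcripts, 11 of them lower in Paf1Δ, and counting every class as an overlap left 2072 and moved no count. Without elements within 5000 nt of ade6 or nmt1, 6 were higher in Leo1Δ, 5 in Paf1-G104R, 1 in Cdc73-G313R, 4 in Leo1-W157Stop and 7 in Paf-1Q264Stop. Without the 20000 nt windows, an alternative chosen after seeing the data, these were 1, 2, 1, 3 and 3, and 5 in Rot1-Q472Stop. In wild type the ratio of the shortest to the longest class was 1.11 by median reads per kb and 2.55 by pooled reads per kb, or 2.57 without ade6, bub1 and vtc4, and that of chromosome 3 to chromosome 1 went from 0.806 to 22.8. Without the 10 transcripts of most reads, also chosen after seeing the data, the Leo1Δ ratio of 3′ UTR to body went from 1.10 to 2.87. Of the 43 named transcripts, 3 missed the threshold after centring (SPBC21B10.15, arp2 and lcp5) and 3 after quantile normalization (ade6, SPBC21B10.15 and arp2).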

Other observations

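The 5′ UTRs of the set did not share the wild-type 3′ excess. In the mutants they held between 0.596 reads per kb in Cdc73-G313R and 7.42 in Leo1Δ, and the part between the UTRs held between 0.659 and 10.7. The 376 transcripts with no opposite gene in RefSeq had a wild-type median level of 3.18, against 3.19 for the other 1720. Below 1000 nt, 6.76% of the 148 without an opposite RefSeq gene reached level 5 in wild type, against 1.23% of the 244 with one. Above that length the shares lay between 0 and 2.24%. The 364 transcripts that overlap a row on the same strand had 1.65% at level 5 in wild type, against 1.79% of the other 1732. The plus strand had 1.87% and the minus strand 1.67%. The gene SPBC24C6.03 overlaps an rRNA gene of RefSeq on the same strand and had 344 wild-type reads at a level of 5.30.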
